A study of Homo sapiens with 6 samples.

Results

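The genes of the epidermal growth factor (EGF) family measured here were 6 ligands (HBEGF, AREG, EREG, TGFA, BTC and NRG1) and 3 ERBB receptors (EGFR, ERBB2 and ERBB3), together with MET, the receptor of hepatocyte growth factor. They were found by their symbols, which matched 10 of the 60748 genes in the table. RNA was sequenced from LX-2 cells, an established human hepatic stellate cell line. The cells stably carried a lentiviral overexpression plasmid for fibroblast activation protein α, a cell surface serine protease (LX-2FAP, n = 3), or the matching vector without that insert (LX-2Vector, n = 3). The comparison asked which transcripts differed in LX-2 cells that overexpressed FAPα. Both kinds of cells had been infected with lentivirus and selected with puromycin, the vector backbone carried a ubiquitin promoter ahead of the insert site and an EGFP gene, and all cells were kept in DMEM with fetal bovine serum and cultured for 24 hours before harvest. The study's methods describe selected stable clones and do not say how many clones stand behind each group, so a difference between clones and an effect of FAPα cannot be told apart. Nothing in the labels says that the 3 libraries of a group came from separate cultures, so the p-values measure only the spread between these libraries.

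EGF-family ligands are made as membrane-anchored precursors and are released by metalloproteases of the ADAM family. HBEGF, AREG, EREG, TGFA and BTC bind EGFR, some of them also bind ERBB4, and NRG1 binds ERBB3 and ERBB4. ERBB2 has no known ligand and acts as the partner of the other receptors, while ERBB3 has little kinase activity of its own. In the liver, EGFR and MET are known for driving hepatocyte growth and repair, and activated stellate cells are a known source of hepatocyte growth factor.

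Sequences upstream of the genes are shown for the receptor and ligand with the highest levels, for EGFR, their neighbour in level, and for the neighbouring ligand genes AREG and EREG. They come from the RefSeq promoter table (GRCh38.p14), are read 5′ to 3′ on the strand of the gene, and end before the annotated start of the gene. Capitals mark GC boxes (GGGCGG on either strand), TATA motifs (TATAAA) and the cAMP response element (TGACGTCA). The windows were MET chr7:116671946-116672195 on the plus strand, EGFR chr7:55018767-55019016 on the plus strand, HBEGF chr5:140346632-140346853 on the minus strand, AREG chr4:74444886-74445133 on the plus strand and EREG chr4:74364895-74365142 on the plus strand.
MET: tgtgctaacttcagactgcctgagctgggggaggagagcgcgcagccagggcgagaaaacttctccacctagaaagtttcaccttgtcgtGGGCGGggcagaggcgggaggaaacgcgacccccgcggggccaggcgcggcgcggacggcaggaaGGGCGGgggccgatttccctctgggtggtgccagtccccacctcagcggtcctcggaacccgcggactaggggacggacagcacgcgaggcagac
EGFR: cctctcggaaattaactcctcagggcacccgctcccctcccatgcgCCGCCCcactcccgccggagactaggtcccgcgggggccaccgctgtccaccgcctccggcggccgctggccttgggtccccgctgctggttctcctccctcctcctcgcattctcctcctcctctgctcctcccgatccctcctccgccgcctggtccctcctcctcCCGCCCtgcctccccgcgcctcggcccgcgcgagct
HBEGF: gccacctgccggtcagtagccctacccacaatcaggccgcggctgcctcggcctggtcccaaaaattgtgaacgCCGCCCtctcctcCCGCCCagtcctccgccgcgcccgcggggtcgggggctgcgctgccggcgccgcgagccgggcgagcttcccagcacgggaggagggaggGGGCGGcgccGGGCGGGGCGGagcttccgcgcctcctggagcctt
AREG: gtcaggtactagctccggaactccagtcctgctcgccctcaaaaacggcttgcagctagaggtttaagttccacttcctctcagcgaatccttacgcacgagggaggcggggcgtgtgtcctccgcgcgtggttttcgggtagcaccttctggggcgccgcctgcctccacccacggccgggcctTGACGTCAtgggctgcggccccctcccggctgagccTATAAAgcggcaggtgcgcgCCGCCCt
EREG: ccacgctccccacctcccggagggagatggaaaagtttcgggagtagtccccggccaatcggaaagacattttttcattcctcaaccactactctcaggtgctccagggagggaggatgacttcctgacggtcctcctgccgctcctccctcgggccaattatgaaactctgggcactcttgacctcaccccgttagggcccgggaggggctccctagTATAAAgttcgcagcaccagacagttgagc

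The promoter table held 8 of the 10 genes, and ERBB3 and NRG1 were not matched. In windows of the 250 bases before the RefSeq start, GC boxes were present in 5 of 8 genes, against 42.6% of 35116 windows of the same length. HBEGF had 5 GC boxes, TGFA 3, EGFR and MET 2 each and AREG 1. TATA motifs were present in AREG and EREG, against 10.7% of all windows. The cAMP response element was present in AREG alone among the 8, against 1.65% of all windows. The AP-1 motif (TGANTCA) was found in the ERBB2 window alone among the 8, against 6.57% of all windows, and the EGR1 motif (GCGNGGGCG, which can overlap a GC box) in 0 of 8, against 8.41%. All 250 bases of the ERBB2 window lay in exons of the neighbouring gene PGAP3, so that window is not shown. These matches describe the letters of the windows only.

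AREG, EREG and BTC lie together on chromosome 4 (GRCh38, GENCODE 29). EREG (ENSG00000124882, chr4:74365143-74388751) and AREG (ENSG00000109321, chr4:74445134-74455009) are on the plus strand 56.4 kb apart, BTC (ENSG00000174808, chr4:74744759-74794686) is on the minus strand 290 kb beyond AREG, and no other protein-coding gene is annotated between them. The receptors are EGFR (ENSG00000146648, chr7:55019021-55211628, plus strand), ERBB2 (ENSG00000141736, chr17:39687914-39730426, plus strand), ERBB3 (ENSG00000065361, chr12:56076799-56103505, plus strand) and MET (ENSG00000105976, chr7:116672390-116798386, plus strand). The other ligand genes are HBEGF (ENSG00000113070, chr5:140332843-140346631, minus strand), TGFA (ENSG00000163235, chr2:70447280-70554193, minus strand) and NRG1 (ENSG00000157168, chr8:31639386-32767959, plus strand).

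Total counts ran from 17355700 to 26352060 per library. FAP checked the labels: it had 49, 42 and 55 counts in the LX-2Vector libraries and 14864, 15160 and 14805 in the LX-2FAP libraries, a log2 fold change of 8.33 (SE 0.13, adjusted p by edgeR = 4.47e-16). Of 12 stellate cell or myofibroblast markers, 10 passed the expression filter, with a summed level of 2090 to 2200 counts-per-million (CPM) in LX-2Vector and 2140 to 2260 CPM in LX-2FAP. LRAT, which stores retinol as esters in quiescent stellate cells, was at 0 in all 6 libraries, and DES was at 0.0283 ± 0.0249 CPM in LX-2Vector (SD, n = 3). VIM made up most of these sums (1545 ± 34.5 CPM in LX-2Vector, SD, n = 3). Among the markers that passed the filter, ACTA2 (3.82 ± 0.337 CPM) and COL1A2 (1.17 ± 0.213 CPM) were low in LX-2Vector (SD, n = 3). Of the 10 stellate markers tested, 4 were called, against 5.29% of all tested genes. The collagen genes COL1A1 (log2 fold change -0.40, adjusted p by edgeR = 0.0135) and COL3A1 (-0.69, adjusted p = 0.00765) and the receptor gene PDGFRB (-0.38, adjusted p = 0.0269) were lower in LX-2FAP, and VIM was higher (0.13, adjusted p = 0.0372). The calls of these 4 genes were not followed through the alternative settings. None of 6 hepatocyte markers passed the filter, and 3 of 6 leukocyte markers did, with sums of 11.4 to 14.9 CPM in LX-2Vector and 12.8 to 16.7 CPM in LX-2FAP.

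Levels were first compared between genes on the FPKM scale, which divides by gene length. MET, HBEGF, EGFR and ERBB2 together made up 97.2% to 97.7% of the summed deposited FPKM of the 10 genes in every library. In LX-2Vector, MET was highest with 47.3, 46.9 and 44.9 FPKM in replicates 1, 2 and 3, above 95.8% of all tested genes. HBEGF, a membrane-anchored ligand of EGFR, followed with 21.8, 20.4 and 17.4 FPKM. EGFR had 18.8, 18.7 and 20.03 FPKM, so HBEGF and EGFR overlapped and their order is not resolved. ERBB2 was lower, with 9.004, 8.66 and 8.75 FPKM.

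The other 6 genes had mean deposited levels under 1 FPKM in LX-2Vector. NRG1, which encodes neuregulin 1 (0.828 FPKM), and AREG, which encodes amphiregulin (0.818 FPKM), overlapped. EREG, which encodes epiregulin, had 0.414 FPKM and ERBB3 0.192 FPKM, each apart from its neighbours in the order. TGFA, the ligand transforming growth factor α (0.125 FPKM), and BTC, the ligand betacellulin (0.121 FPKM), overlapped. In LX-2FAP, the order was the same except that AREG (1.08 FPKM) came before NRG1 (0.754 FPKM). AREG and NRG1 overlapped in LX-2FAP too, as did HBEGF and EGFR, ERBB3 and TGFA, and TGFA and BTC, so these orders are not resolved. The gene length behind the deposited NRG1 value was 21398 bases, against 11328 bases of merged exons in GENCODE 29. With the latter, NRG1 would be at 1.57 FPKM in LX-2Vector, against 0.815 FPKM for AREG at its GENCODE 29 length. The order of NRG1 and AREG and the share of HBEGF among the ligands therefore rest on the deposited lengths.

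**Figure D1:**
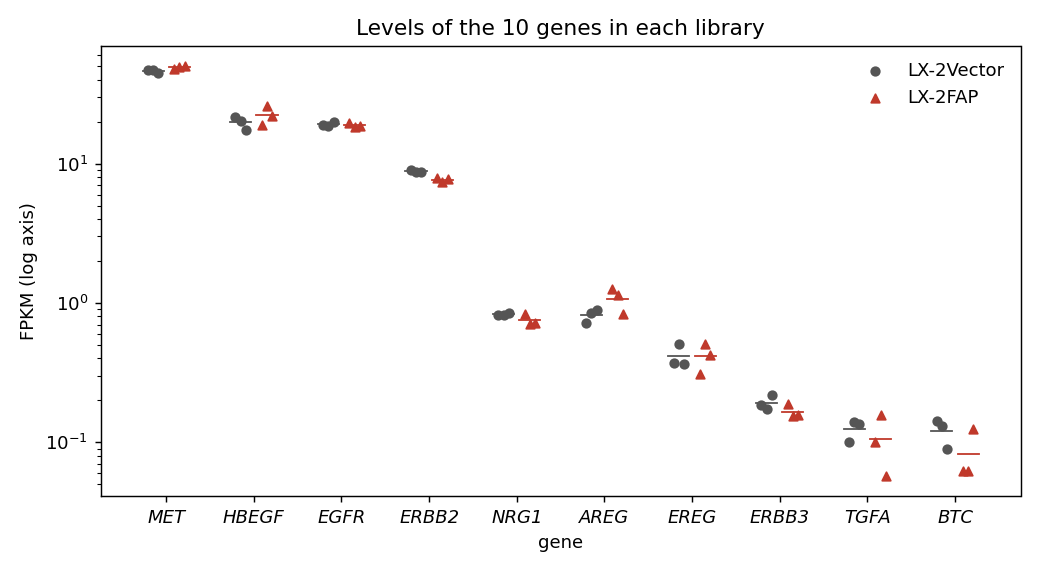
Level of each of the 10 genes in FPKM on a log axis, with 1 point per library, circles for LX-2Vector, triangles for LX-2FAP and short lines for the mean of 3 libraries. MET, HBEGF, EGFR and ERBB2 stand above the other 6 genes in all 6 libraries.

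HBEGF took 89.5% ± 1.41 of the summed deposited FPKM of the 6 ligands in LX-2Vector and 90.0% ± 1.76 in LX-2FAP (SD, n = 3 each). Among the 4 receptors, MET took 62.2% ± 1.22 in LX-2Vector and 64.7% ± 1.40 in LX-2FAP. The share of ERBB2 was 11.8% ± 0.200 in LX-2Vector and 10.1% ± 0.356 in LX-2FAP. The ratio of EGFR to ERBB2 in FPKM was 2.09, 2.16 and 2.29 in the LX-2Vector libraries and 2.48, 2.49 and 2.42 in the LX-2FAP libraries. All 3 LX-2FAP ratios lay above all 3 LX-2Vector ratios. The ratio of MET to EGFR was 2.51, 2.50 and 2.24 in LX-2Vector and 2.41, 2.70 and 2.67 in LX-2FAP, and the groups overlapped.

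Of the 10 genes, 9 passed the filter on low counts and were tested, and 1, ERBB2, was called at an adjusted p under 0.05, with a lower level in LX-2FAP. None was called higher. Over all 18275 tested genes, 5.29% were called, 2.57% higher and 2.73% lower in LX-2FAP. At an unadjusted p under 0.05 there were 2 of the 9 genes, ERBB2 and MET, against 22.2% of all tested genes. The normalized levels of the groups did not overlap for the same 2 genes, against 26.4% of all tested genes (13.0% with LX-2FAP above LX-2Vector and 13.4% below). The median log2 fold change was 0.0101 over the 9 genes and -0.0125 over all tested genes.

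ERBB2 had 92.7, 88.4 and 89.4 CPM in the LX-2Vector libraries and 82.7, 77.7 and 80.6 CPM in the LX-2FAP libraries. Every LX-2FAP library was below every LX-2Vector library. The mean was 90.2 ± 2.25 CPM in LX-2Vector cells and 80.3 ± 2.52 CPM in LX-2FAP cells (SD, n = 3 each), a fold change of 0.891 with a 95% interval of 0.833 to 0.953. The log2 fold change was -0.17 (SE 0.05, adjusted p by edgeR = 0.0455). The call was lost when any 1 library other than LX-2FAP replicate 1 was left out (log2 fold change from -0.14 to -0.17, edgeR adjusted p from 0.0792 to 0.208), and with limma on log2 FPKM at a pseudocount of 1 or 0.1 (adjusted p = 0.119 and 0.117).

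The GC content of the transcripts moved with the fold changes of all genes. The median log2 fold change was 0.07 in the lowest of 5 classes of GC content with nearly equal numbers of genes (23.1% to 41.8%), where 275 genes were called higher and 15 lower. It was -0.12 in the highest class (57.4% to 74.4%), where 3 were called higher and 270 lower. ERBB2, at 59.5% GC, was in the highest class. With a smooth trend on GC content removed from each library, the log2 fold change of ERBB2 was -0.04 (SE 0.04, adjusted p by edgeR = 0.592), so the call was lost. The part of GC content in the ERBB2 result was not otherwise tested. Of the ERBB2 exon bases, 7.41% overlap PGAP3 and MIEN1 on the other strand, and whether the counting used strand is not stated.

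The summed level of epithelial markers did not overlap between the groups, with 282 to 285 CPM in LX-2Vector and 249 to 278 CPM in LX-2FAP. Of the 6 epithelial markers, 4 passed the filter. Taken singly, the groups overlapped for each of these 4, and 0 were called. KRT8 and KRT18 made up most of the sum, while EPCAM (0.224 ± 0.0480 CPM in LX-2Vector) and CDH1 (0.0853 ± 0.0743 CPM in LX-2Vector) were near 0 (SD, n = 3). Of 6 endothelial markers, 5 passed the filter. The sum of the endothelial markers was 11.7 to 13.4 CPM in LX-2Vector and 8.62 to 11.4 CPM in LX-2FAP, also without overlap. Singly, 2 of the 5 did not overlap, against 26.4% of all tested genes. Of the 5, 1 was called, against 5.29% of all tested genes. This was VWF, lower in LX-2FAP (log2 fold change -1.06, adjusted p by edgeR = 0.0268). VWF had 12 to 74 counts per library, and its call was not followed through the alternative settings. The part of these markers and of the called stellate markers in the ERBB2 result was not tested.

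MET had 340.5, 335.3 and 321.4 CPM in the LX-2Vector libraries and 346.5, 364.5 and 365.2 CPM in the LX-2FAP libraries. The groups did not overlap, and the gap between LX-2Vector replicate 1 and LX-2FAP replicate 1 was small. The mean was 332.4 ± 9.85 CPM in LX-2Vector cells and 358.7 ± 10.6 CPM in LX-2FAP cells (SD, n = 3 each). The log2 fold change of 0.11 (SE 0.04, 95% interval 0.02 to 0.19) did not pass the threshold (adjusted p by edgeR = 0.118). It was above 0 in all 15 alternative settings, with an adjusted p of 0.0534 at the lowest. MET transcripts have 43.9% GC, and the value with the GC trend removed was 0.10.

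EGFR had 234.8, 231.8 and 248.2 CPM in the LX-2Vector libraries and 248.9, 233.9 and 236.8 CPM in the LX-2FAP libraries. The groups overlapped throughout. The log2 fold change was 0.01 (SE 0.04, adjusted p by edgeR = 0.922), and its 95% interval ran from -0.08 to 0.10. The sign turned with library size alone as the scaling (-0.02).

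ERBB3 was detected at a low level, with 2.16, 1.99 and 2.54 CPM in LX-2Vector cells and 2.21, 1.84 and 1.86 CPM in LX-2FAP cells. The groups overlapped, with a log2 fold change of -0.17 (SE 0.18, adjusted p by edgeR = 0.620). The interval, from -0.55 to 0.20, is wider than that of ERBB2 or EGFR, and a change of the size called for ERBB2 was not detectable in ERBB3 at this depth.

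**Figure D2:**
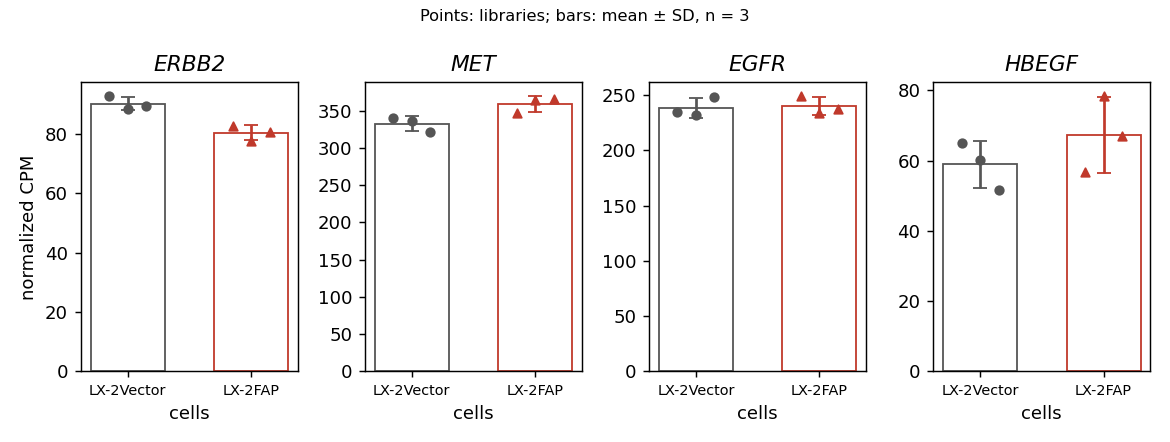
Normalized CPM of ERBB2, MET, EGFR and HBEGF, with 1 point per library, bars for the mean and error bars for the SD of 3 libraries, each panel with its own axis from 0. ERBB2 lies between 77.7 and 82.7 CPM in LX-2FAP and between 88.4 and 92.7 CPM in LX-2Vector, and HBEGF overlaps between the groups.

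None of the 5 tested ligands was called. HBEGF had 65.0, 60.3 and 51.6 CPM in the LX-2Vector libraries and 56.8, 78.4 and 67.0 CPM in the LX-2FAP libraries. LX-2FAP replicate 1 lay within the LX-2Vector range, while LX-2FAP replicates 2 and 3 lay above it. The mean was 59.0 ± 6.78 CPM in LX-2Vector cells and 67.4 ± 10.8 CPM in LX-2FAP cells (SD, n = 3 each), a log2 fold change of 0.18 (SE 0.10, 95% interval -0.02 to 0.39, adjusted p by edgeR = 0.271). Without LX-2FAP replicate 1, HBEGF was called higher (log2 fold change 0.30, adjusted p by edgeR = 0.0307), and with no filter on low counts it was also called (0.18, adjusted p = 0.0286). Without LX-2FAP replicate 2 the log2 fold change was 0.07.

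HBEGF varied more between libraries of a group than the other abundant genes. Its coefficient of variation was 11.5% in LX-2Vector and 16.0% in LX-2FAP, where counting error alone would give 2.78% in LX-2Vector. The coefficients of variation in LX-2Vector were 3.67% for EGFR, 2.96% for MET and 2.50% for ERBB2.

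AREG had 31, 24 and 31 counts in the LX-2Vector libraries and 50, 34 and 29 counts in the LX-2FAP libraries. In normalized terms these were 1.17, 1.37 and 1.46 CPM against 2.09, 1.89 and 1.38 CPM. LX-2FAP replicates 1 and 2 lay above the LX-2Vector libraries and replicate 3 lay among them. The log2 fold change was 0.44 (SE 0.21, 95% interval -0.01 to 0.89, adjusted p by edgeR = 0.240).

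The neighbouring ligand gene EREG had 2.12, 2.85 and 2.07 CPM in LX-2Vector cells and 1.79, 2.95 and 2.44 CPM in LX-2FAP cells. The groups overlapped, with a log2 fold change of 0.02 (SE 0.20, adjusted p by edgeR = 0.964), and its sign turned with library size alone as the scaling. BTC, also on this stretch of chromosome 4, had 10, 6 and 5 counts in LX-2Vector and 4, 3 and 7 counts in LX-2FAP, and did not pass the filter. Counts this low leave a change in BTC undetectable at this depth.

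TGFA had 13, 12 and 14 counts in LX-2Vector and 12, 14 and 6 counts in LX-2FAP. LX-2FAP replicate 3 had the fewest counts, and the other 5 libraries had 12 to 14. The TGFA log2 fold change was -0.23 with a 95% interval from -0.99 to 0.53 (adjusted p by edgeR = 0.763), and without LX-2FAP replicate 3 it was 0.05. NRG1, the ERBB3 ligand, had 17.4, 17.4 and 17.9 CPM in LX-2Vector cells and 18.1, 15.3 and 15.7 CPM in LX-2FAP cells. LX-2FAP replicate 1 was the highest of the 6 and the other LX-2FAP libraries were the lowest, giving a log2 fold change of -0.10 (SE 0.08, 95% interval -0.27 to 0.07, adjusted p by edgeR = 0.506).

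**Figure D3:**
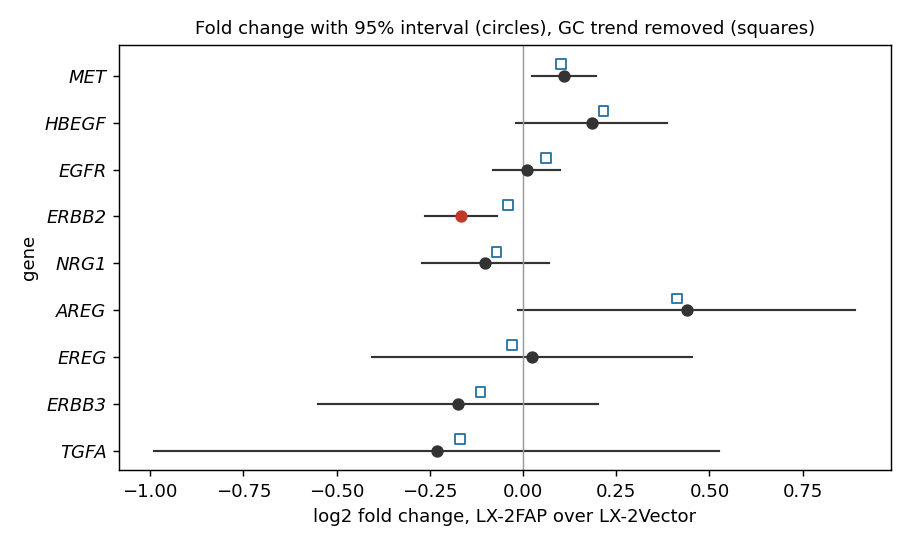
Log2 fold change of the 9 tested genes, LX-2FAP over LX-2Vector, with 95% intervals (circles and lines, red where called) and the value after a GC trend was removed (squares). The ERBB2 circle is at -0.17 and its square at -0.04, and the intervals of TGFA, AREG and EREG are wide.

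**Figure D4:**
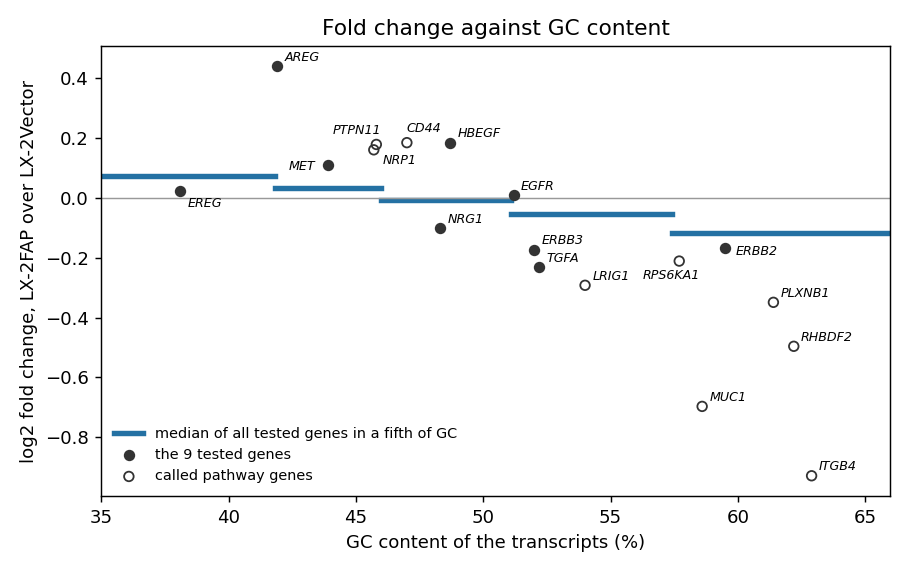
Log2 fold change against the GC content of the transcripts in percent, for the 9 tested genes (filled), the called pathway genes (open) and the median of all tested genes in each of 5 classes of GC content (bars, cut at the edges of the axis). The medians fall from 0.07 to -0.12, and ERBB2 is the 1 filled point in the highest class.

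The genes most like the leading receptor and the leading ligand were looked up by Pearson's r of log2 CPM over the 6 libraries, among 11555 genes that averaged 100 counts or more. For MET they were GLRX3 (r = 0.997), DCTN4 (r = 0.996) and ABHD2 (r = 0.996), and 717 genes had an r over 0.9 with it. For HBEGF they were SLC3A2 (r = 0.998), MAP2K3 (r = 0.996) and ITPRIP (r = 0.996), and 429 genes had an r over 0.9 with it. With 6 libraries in 2 groups, r reflects the groups and the order of libraries within them, so these values are descriptions only.

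The wider pathway was covered by 8 lists with 91 genes, of which 83 passed the filter. In all, 9 were called, 3 higher and 6 lower in LX-2FAP, against 5.29% of all tested genes called. Of these 9, 5 were in the list of membrane partners of HBEGF, the ERBB receptors and MET. As the lists were chosen with earlier results of these data known, these counts are descriptions only. The groups did not overlap for 27 of the 83, against 26.4%. The median log2 fold change of the 83 was -0.000248, against -0.0125 over all tested genes. By limma on log2 FPKM 0 of the 83 were called, with 2 called among all tested genes. At an unadjusted p under 0.05 by limma there were 22 of the 83 at each pseudocount. Over all 18275 tested genes there were 3662 at a pseudocount of 1 and 3638 at 0.1.

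Among the other EGF-family genes, 4 of 6 passed the filter and 0 were called. ERBB4, the second receptor of NRG1, had 0 to 2 counts per library, and NRG3 had 1 to 5. NRG2, a further neuregulin, was the highest with 1.32 FPKM in LX-2Vector (log2 fold change -0.17, adjusted p by edgeR = 0.450), while EPGN (0.196 FPKM), NRG4 (0.143 FPKM) and EGF itself (0.122 FPKM) were low. FBXO22 overlaps 38.1% of the NRG4 exon bases on the other strand.

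In the MET and RON system, 5 of 9 genes passed the filter and 0 were called. HGF, the ligand of MET, had 8 to 13 counts per library and did not pass the filter. PLAU, the urokinase protease that can activate the HGF precursor, was highest with 14.4 FPKM in LX-2Vector (log2 fold change 0.03, adjusted p by edgeR = 0.795). MST1, the ligand of the RON receptor, had 0.774 FPKM, HGFAC, an activator of HGF, 0.266 FPKM and MST1R, which encodes RON, 0.120 FPKM. C10orf55 overlaps 31.1% of the PLAU exon bases on the other strand. In MST1 transcripts, 13.7% of the words of 75 bases also occur in transcripts of other genes.

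All 11 sheddases and their carriers were tested and 1, RHBDF2, was called, against 5.29% of all tested genes. RHBDF2 (ENSG00000129667, chr17:76470891-76501790, minus strand) encodes iRhom2, which carries the sheddase ADAM17 to the cell surface. It had 40.1, 39.5 and 46.4 CPM in LX-2Vector cells and 31.3, 28.7 and 29.3 CPM in LX-2FAP cells, without overlap. The log2 fold change was -0.50 (SE 0.07, adjusted p by edgeR = 0.00283), it was called in all 6 fits with 1 library left out, and it remained called with the GC trend removed (-0.35, adjusted p = 0.0183). Its transcripts have 62.2% GC. ADAM17 itself had 56.2 ± 1.40 CPM in LX-2Vector cells and 54.0 ± 2.35 CPM in LX-2FAP cells (SD, n = 3 each, log2 fold change -0.06, adjusted p = 0.532). IAH1 and AC073195.1 overlap 13.6% of the ADAM17 exon bases on the other strand.

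Of 15 receptor-proximal adaptors, 1 was called, and of 13 genes of the RAS-RAF-MEK-ERK core, 1 was called, against 5.29% of all tested genes. The phosphatase gene PTPN11 (SHP2), which relays signals from EGFR and MET to RAS, was higher in LX-2FAP, with 555.0 ± 14.96 CPM in LX-2Vector cells and 628.4 ± 28.3 CPM in LX-2FAP cells (SD, n = 3 each; log2 fold change 0.18, SE 0.04, adjusted p by edgeR = 0.0233). RPS6KA1, which encodes the ERK-activated kinase RSK1, was lower, with 43.2 ± 0.852 CPM in LX-2Vector cells and 37.3 ± 1.41 CPM in LX-2FAP cells (log2 fold change -0.21, SE 0.05, adjusted p = 0.0362). With the GC trend removed, PTPN11 remained called (0.19, adjusted p = 0.0182) and RPS6KA1, at 57.7% GC, did not (-0.10, adjusted p = 0.257). PTPN11 was called in 2 and RPS6KA1 in 1 of the 6 fits with 1 library left out. Of the words of 75 bases in PTPN11 transcripts, 2.41% also occur in transcripts of other genes.

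Of 12 genes in the PI3K, AKT and STAT arms, 11 were tested and 0 called. Among those with high levels in LX-2Vector were the transcription factor genes STAT3 (12.9 FPKM) and STAT5B (12.7 FPKM) and the kinase gene AKT1 (9.06 FPKM). All 16 inhibitors and ubiquitin ligases of the receptors were tested and 1 was called, against 5.29% of all tested genes. LRIG1, a transmembrane protein that promotes the breakdown of ERBB receptors, had 85.1, 88.9 and 105.9 CPM in LX-2Vector cells and 80.3, 74.1 and 73.9 CPM in LX-2FAP cells. All LX-2FAP libraries were below all LX-2Vector libraries, and LX-2Vector replicate 3 stood above the rest. The log2 fold change was -0.29 (SE 0.07, adjusted p by edgeR = 0.0252). The call was lost without LX-2Vector replicate 3 (-0.18, adjusted p = 0.0911), without LX-2FAP replicate 2 (-0.27, adjusted p = 0.104), without LX-2FAP replicate 3 (-0.27, adjusted p = 0.154) and with the GC trend removed (-0.22, adjusted p = 0.0840). Of the LRIG1 exon bases, 12.9% overlap SLC25A26 on the other strand.

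Of 9 membrane partners of HBEGF, the ERBB receptors and MET, 8 were tested and 5 called, against 5.29% of all tested genes. This list was chosen with earlier results of these data known, so the count is a description only. CD44, the hyaluronan receptor whose variant forms can present HBEGF and assist MET, had 1098, 1131 and 1129 CPM in LX-2Vector cells and 1264, 1282 and 1272 CPM in LX-2FAP cells. The groups were well apart, with a log2 fold change of 0.18 (SE 0.03, adjusted p by edgeR = 0.00957), and the call held with the GC trend removed (0.20, adjusted p = 0.00355). It was lost without LX-2FAP replicate 2 or replicate 3, and CD44-AS1 overlaps 0.840% of the CD44 exon bases on the other strand. NRP1, a coreceptor of several growth factors, was also higher in LX-2FAP, with 491.4 ± 2.39 CPM in LX-2Vector cells and 549.1 ± 21.2 CPM in LX-2FAP cells (SD, n = 3 each; log2 fold change 0.16, SE 0.04, adjusted p = 0.0284). NRP1 was called in 2 of the 6 fits with 1 library left out, and was not called with library size alone as the scaling (0.13, adjusted p = 0.0579). AL121748.2 overlaps 4.87% of the NRP1 exon bases on the other strand.

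The other 3 called membrane partners were lower in LX-2FAP. ITGB4 (ENSG00000132470, chr17:75721328-75757818, plus strand), the integrin β4 subunit, which can associate with ERBB2 and MET, had 9.20, 7.86 and 8.75 CPM in LX-2Vector cells and 5.21, 4.84 and 3.53 CPM in LX-2FAP cells, without overlap. Its log2 fold change was -0.93 (SE 0.13, adjusted p by edgeR = 0.00352), it was called in all 6 fits with 1 library left out, and it remained called with the GC trend removed (-0.77, adjusted p = 0.00693). PLXNB1, a semaphorin receptor that can couple to MET and ERBB2, fell by 0.35 on the log2 scale (SE 0.09, adjusted p by edgeR = 0.0350). MUC1, a membrane mucin known to bind EGFR, fell by 0.70 (SE 0.19, adjusted p by edgeR = 0.0451). MUC1 was low, with 33 to 80 counts per library. PLXNB1 and MUC1 were not called with the GC trend removed (adjusted p = 0.172 and 0.0929) and were each called in 1 of the 6 fits with 1 library left out.

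**Figure D5:**
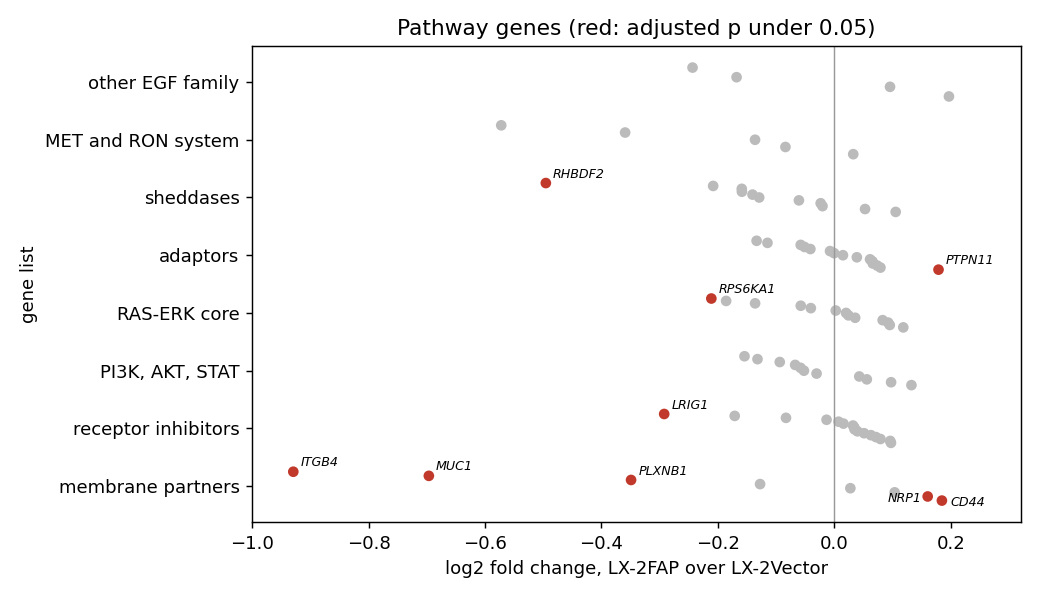
Log2 fold change, LX-2FAP over LX-2Vector, of the 83 tested genes of the 8 pathway lists, with 1 point per gene and called genes in red with their names. ITGB4 (-0.93), MUC1 (-0.70) and RHBDF2 (-0.50) lie farthest below 0 among the called genes, and CD44 (0.18), PTPN11 (0.18) and NRP1 (0.16) are the 3 called above it.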

How the data were processed

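RNA was measured in 6 libraries, grouped by their titles. Per the submitters' processing notes, HISAT2 2.0.5, featureCounts 1.5.0-p3, DESeq2 1.16.1 and edgeR were used, and the build named is hg18. The identifiers were matched to GENCODE 29 (GRCh38) for the coordinates given here. Neither the annotation release nor the strand setting of the counting is given in the sources used here. Libraries were made from rRNA-depleted RNA per the labels, while a poly(A) step also appears in the study's methods. The authors deposited whole-number counts, not normalized, and FPKM values, which the authors computed from counts and gene length. All value columns were assigned to a sample.

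Counts were tested with edgeR 4.0.16 (R 4.3.3; quasi-likelihood test, TMM, minimum count 10, minimum total 15), LX-2FAP against LX-2Vector with no covariate, with Benjamini-Hochberg adjustment over 18275 genes. All tests were 2-sided, and calls were made at an adjusted p under 0.05. An exact permutation test of 3 against 3 cannot give a p below 0.1. CPM are normalized by TMM, and standard errors come from the test statistic. The counts of replicate libraries were not within sampling noise of each other (chi-square divided by its degrees of freedom, 2.05 to 4.88).

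Named genes are the 10 genes, FAP, every called gene of a pathway list or, with none called, up to 4 with the highest FPKM, and the 3 most like MET and HBEGF. Of these, 1 gene is not reported here. ADAM17, HGF, ERBB4 and NRG3 and the markers singled out were chosen after their values were seen. The genes and lists were chosen with earlier results of these data known. Alternatives were DESeq2 1.42.0, its size factors, library size alone, other filters, limma 3.58.1 on log2 FPKM with a pseudocount of 1 or 0.1, the replicate block, each library left out and, chosen after seeing the data, removal of a loess trend on GC content (span 0.5, GC known for 98.1% of tested genes).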

Additional observations from a re-analysis of the deposited data

How the results depend on the processing

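The number of the 10 genes called was 1 and became 2 with no filter on low counts (1 higher), 0 with limma-trend on log2(FPKM + 1) and on log2(FPKM + 0.1), 0 with the GC trend removed and 0 at a fold change over 1.2 with an unadjusted p under 0.05, and ran from 0 to 2 with 1 library left out (0 to 1 higher and 0 to 1 lower). With 0 called by limma, 1 of the 9 tested genes had an unadjusted p under 0.05 at each pseudocount, against 2 by edgeR. Over all 18275 tested genes, 3662 and 3638 had one by limma at the pseudocounts 1 and 0.1, and 4054 by edgeR. Pathway genes called were 9, 0 and 0 by limma (22 with an unadjusted p under 0.05 in each) and 2 to 14 with 1 library left out. By limma only 2 of all tested genes were called, and the cause was not tested. Without LX-2FAP replicate 1, 1949 of all tested genes were called, and without LX-2FAP replicate 3, 26.

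Near 0, signs turned. EGFR was -0.0187 with library size alone, -0.0177 and -0.0186 by limma at the pseudocounts 1 and 0.1, and -0.0158 to 0.0474 with 1 library left out. EREG was -0.00338, -0.00142 and -0.0092 in the same settings, -0.0292 with the GC trend removed and -0.138 to 0.214 with 1 library left out. TGFA ran from -0.575 to 0.0544 with 1 library left out, and could not be fitted with at least 10 counts in every sample. The cause was not tested. ERBB2, ERBB3, MET, HBEGF, AREG and NRG1 kept their sign in all 15 alternatives, and FAP was called in each. By CPM, EGFR and ERBB2 ranked above HBEGF.

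Replicate numbers did not pair the libraries (r between deviations of same-numbered libraries -0.0389, 0.0436 and -0.00962). With the replicate block 975 genes were called, against 967, and ERBB2 was again the 1 gene of the 10. Of the pathway genes 8 were called with the block, against 9, and MUC1 was not among them (adjusted p = 0.0634). Depth limits BTC, TGFA and AREG, with 50 counts at most.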
